A study of Mus musculus with 6 samples.

Results

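Caveolae are small flask-shaped pits of the plasma membrane, rich in cholesterol, whose coat is built of caveolins, which insert into the inner leaflet, and of cavins, which assemble on them from the cytosol. EHD2, an ATPase that binds membrane, sits as a ring at the neck of the pit. Fibroblasts, endothelial cells, adipocytes and muscle cells carry many caveolae, and most blood cells carry few. The genes described here are the 3 caveolins (Cav1, Cav2 and Cav3), 3 cavins under their older symbols (Ptrf, which is cavin 1, Sdpr, which is cavin 2, and Prkcdbp, which is cavin 3) and Ehd2. They were chosen by gene symbol, and each of the 7 symbols matched 1 row among the 26323 genes of the deposited table.

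The 7 genes were followed through the reprogramming of mouse embryonic fibroblasts (MEFs) to blood precursors, with 2 Mouse Exon 1.0 ST arrays in each of 3 groups. Untreated MEFs are fibroblasts of wild-type mid-gestation embryos that received no virus. CDH5+ cells came from wild-type MEFs transduced with lentiviruses for ERG, GATA2, LMO2, RUNX1c and SCL and were sorted 8 days later for VE-cadherin, a junction protein of endothelium. The c-KIT+ cells came from wild-type MEFs that received the same 5 factors and were sorted after 12 days for the stem cell factor receptor. Before transduction, MEFs had been depleted of cells with CD41, CD31, c-KIT or CD45 on their surface. Untreated MEFs were neither transduced nor sorted for these markers, so the factors, the transduction, the sort and the time in culture cannot be told apart. Nothing in the sources says how the biological replicates were separated, and the p-values measure only the spread between these arrays.

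The values are log2 expression as the authors deposited them, with array medians from 5.54 to 5.62. The level taken as background is the 95th percentile of 884 olfactory receptor genes, which lay between 5.90 and 6.04 on the 6 arrays. The markers of the labelled cell types were present: in CDH5+ cells 11 of 16 endothelial markers were higher than in untreated MEFs by limma's test (adjusted p under 0.05, and 2 or 3 of 16 with any array but CDH5+ replicate 1 left out), and in c-KIT+ cells 13 of 14 blood cell markers were (7 and 8 without c-KIT+ replicates 1 and 2). CDH5+ cells held blood cell markers too, with 11 of 14 higher than in untreated MEFs (2 without CDH5+ replicate 2, 6 without either c-KIT+ array and 7 without untreated replicate 1). The c-KIT+ cells in turn had 3 of 16 endothelial markers higher than untreated MEFs by the same test (Cdh5, Pecam1 and Icam2). In them 10 of 14 fibroblast markers were above background on both arrays, against 13 of 14 in untreated MEFs. The marker counts include Cdh5 in CDH5+ cells and Kit in c-KIT+ cells, and the cells were sorted on those proteins. The pairs of MEF and CDH5+ arrays were unlike each other. The mean level of 14 fibroblast markers was 10.37 and 9.05 in untreated replicates 1 and 2, 9.23 and 7.33 in CDH5+ replicates 1 and 2, and 7.17 and 7.31 in c-KIT+ replicates 1 and 2, and 12 cell cycle genes averaged 5.15 and 7.75 in the untreated pair. In bulk samples such as these, fewer cells of a type and less RNA per cell cannot be told apart.

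Of the 7 caveolar genes, 5 fell in c-KIT+ cells against untreated MEFs (Cav1, Cav2, Ptrf, Sdpr and Ehd2) and none was higher. The same limma test at an adjusted p under 0.05 called 2.72% of all genes lower and 3.24% higher. Many of those genes were dim in every group. With a filter on dim genes, which kept the 12889 with a group mean above background, it called 1050 lower and 1102 higher. The same 5 caveolar genes passed there, and Cav3 was filtered out. An unadjusted p under 0.05 was reached by 6 of the 7, all but Cav3, and by 21.1% of all genes. The measured falls lay between 2.58-fold for Ptrf and 7.66-fold for Sdpr. The median log2 difference of the 7 genes was -1.99, or -1.37 with Cav2, which was within background in c-KIT+ cells, at its bound, beside 0.05 for all genes. Prkcdbp was lower by 1.24 on the log2 scale and missed the threshold, and Cav3, the muscle caveolin, was at background in most arrays. For 6 of the 7 genes, all but Cav3, both c-KIT+ arrays lay below both untreated arrays, as did those of 22.9% of all genes.

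**Figure D1:**
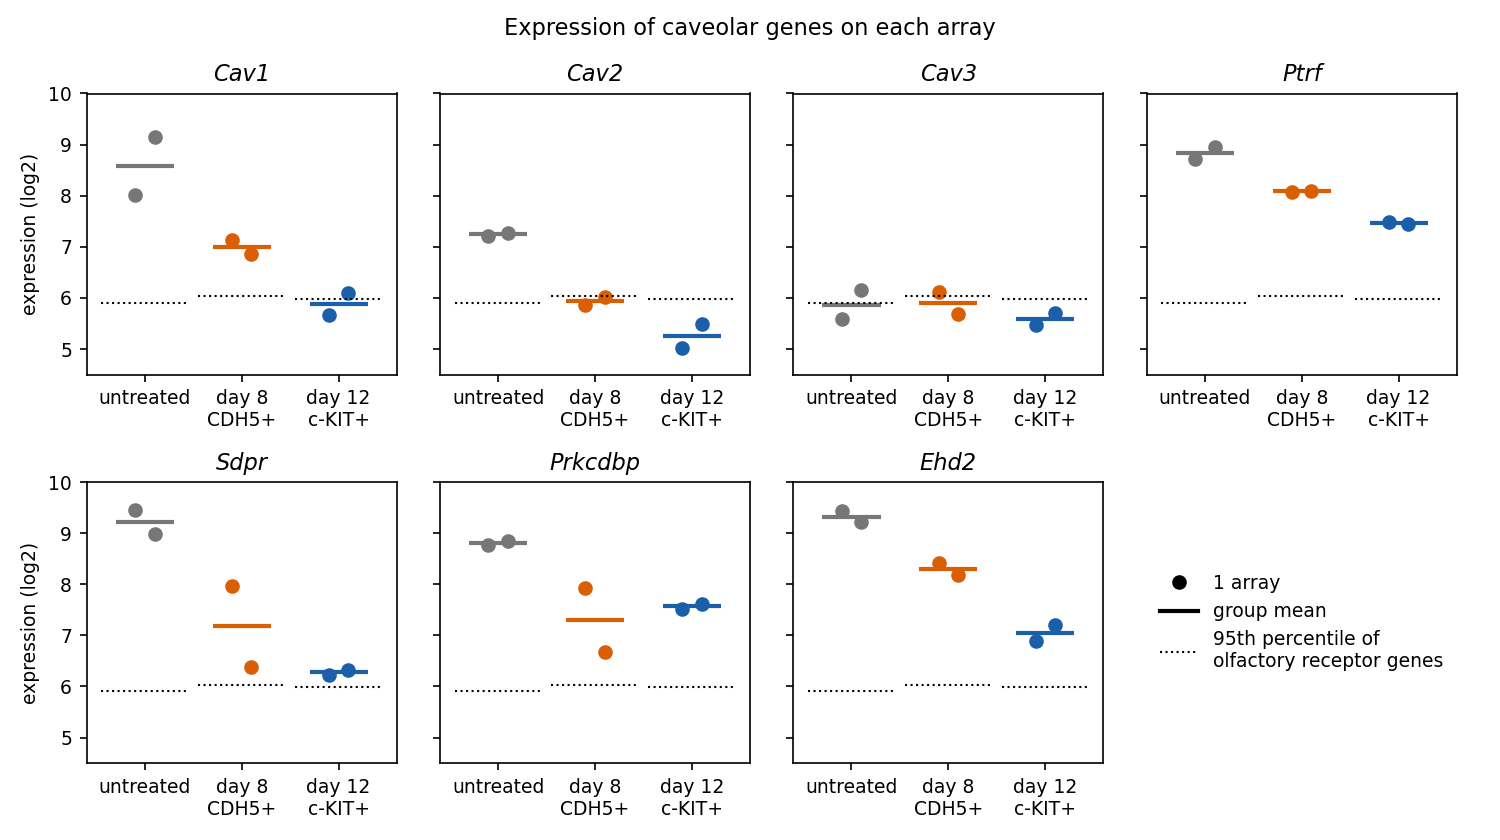
Log2 expression of the 7 caveolar genes in untreated MEFs, in CDH5+ cells of day 8 and in c-KIT+ cells of day 12. Each point is 1 array, each bar the mean of 2 arrays, and the dotted line is the mean over a group's 2 arrays of the 95th percentile of olfactory receptor genes. Cav1, Cav2, Ptrf, Sdpr and Ehd2 step down from left to right in their group means, with Cav2 at or under the dotted line in both sorted groups, Prkcdbp does not, and Cav3 stays near the dotted line.

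Cav1 (ENSMUSG00000007655) encodes caveolin 1, the protein without which non-muscle cells form no caveolae. Its log2 level was 8.02 and 9.15 in untreated MEFs, 7.13 and 6.86 in CDH5+ cells, and 5.67 and 6.10 in c-KIT+ cells. The 3 pairs did not overlap, and 1 of the 2 c-KIT+ arrays was above background. The c-KIT+ cells differed from untreated MEFs by -2.70 (SE 0.41, 95% interval -3.70 to -1.70), a 6.5-fold fall with a limma adjusted p of 0.0217. The untreated arrays differed from each other by 1.12, the widest gap between replicates of this gene.

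Cav2 (ENSMUSG00000000058), a partner that forms hetero-oligomers with caveolin 1, lies next to Cav1 on chromosome 6 with no protein-coding gene between them. It measured 7.22 and 7.27 in untreated MEFs, 5.87 and 6.02 in CDH5+ cells, and 5.02 and 5.49 in c-KIT+ cells. By this gene value all CDH5+ and c-KIT+ arrays were within background and below both untreated arrays. Of its 9 probe sets, 4 were above the probe set background on both CDH5+ arrays and 1 on both c-KIT+ arrays, against 6 on both untreated arrays. The measured fall in c-KIT+ cells was 3.97-fold (log2 difference -1.99, SE 0.23, limma adjusted p = 0.0107). Since the c-KIT+ level lies within background, the measured values bound the fall at 2.39-fold or more, taking the background level of each c-KIT+ array in place of a lower value.

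Cav3 (ENSMUSG00000062694) encodes the caveolin of skeletal and heart muscle. Its level was 5.58 and 6.15 in untreated MEFs, 6.11 and 5.68 in CDH5+ cells, and 5.48 and 5.70 in c-KIT+ cells. The groups overlapped and none had both arrays above background. The difference of c-KIT+ cells from untreated MEFs was -0.28 (95% interval -0.98 to 0.43, limma adjusted p = 0.658). Of 10 other skeletal and cardiac muscle markers, none passed the test in c-KIT+ or CDH5+ cells against untreated MEFs. Above background on both arrays were 0 of 10 in c-KIT+ cells, 0 of 10 in CDH5+ cells and 3 of 10 in untreated MEFs. Their mean level was 5.38 and 6.04 in untreated replicates 1 and 2. The widest gaps between these arrays were those of Acta1 (5.93 and 8.55) and Tnnt2 (5.58 and 7.91). Their relation to the Cav3 values was not tested.

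Ptrf (ENSMUSG00000004044), cavin 1, is the cavin that the coat of all caveolae needs. It had 8.71 and 8.96 in untreated MEFs, 8.07 and 8.10 in CDH5+ cells, and 7.48 and 7.45 in c-KIT+ cells. The pairs were tight and did not overlap, and every array stayed well above background, with the c-KIT+ mean at 7.46 ± 0.021 (SD, n = 2) and the untreated mean at 8.83 ± 0.18 (SD, n = 2). The fall in c-KIT+ cells, 2.58-fold, was smaller in size than the measured falls of Cav1, Sdpr and Ehd2 and passed the test (log2 difference -1.37, SE 0.20, limma adjusted p = 0.0192).

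Sdpr (ENSMUSG00000045954), cavin 2, binds phosphatidylserine and bends the membrane. Its level was 9.45 and 8.98 in untreated MEFs, 7.97 and 6.38 in CDH5+ cells, and 6.22 and 6.33 in c-KIT+ cells. CDH5+ replicate 2 sat next to the c-KIT+ arrays and CDH5+ replicate 1 lay 1.59 above it. The c-KIT+ cells were 7.66-fold below untreated MEFs (log2 difference -2.94, SE 0.52, limma adjusted p = 0.0348), the largest measured fall of the 7 genes. Without untreated replicate 1 the adjusted p was 0.119, and without untreated replicate 2 it was 0.0543.

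Prkcdbp (ENSMUSG00000037060), cavin 3, is a cavin that binds caveolin 1. It gave 8.77 and 8.84 in untreated MEFs, 7.92 and 6.68 in CDH5+ cells, and 7.52 and 7.62 in c-KIT+ cells. The c-KIT+ arrays were both below the untreated arrays and lay between the 2 CDH5+ arrays, which were 1.24 apart. The c-KIT+ difference from untreated MEFs was -1.24 (SE 0.41, 95% interval -2.25 to -0.23, limma adjusted p = 0.162). With only the c-KIT+ and untreated arrays in the fit, the limma adjusted p was 0.0468. Leaving out either CDH5+ array gives this same fit and is no separate result.

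Ehd2 (ENSMUSG00000074364) encodes the ATPase of the caveolar neck. Its log2 level was 9.43 and 9.22 in untreated MEFs, 8.42 and 8.18 in CDH5+ cells, and 6.89 and 7.20 in c-KIT+ cells. The 3 pairs were separate and all arrays were above background. The c-KIT+ cells were 4.87-fold below untreated MEFs (log2 difference -2.28, SE 0.22, limma adjusted p = 0.00608), the smallest adjusted p of the 7.

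These calls rest on both c-KIT+ arrays. With either of them left out, 0 of the 7 genes passed and the adjusted p-values of the 5 lay between 0.0616 and 0.21, while the fit called 11 lower genes without c-KIT+ replicate 1 and 18 without c-KIT+ replicate 2, against 716 with both. With only the c-KIT+ and untreated arrays in the fit, Cav1 had an adjusted p of 0.0514. Fibroblast and smooth muscle markers shared the direction of the group difference. By limma, 6 of 14 fibroblast markers fell at day 12, with a median log2 difference from untreated MEFs of -2.67. Of the smooth muscle markers 5 of 7 fell, with a median of -3.34. Both counts were smaller with untreated replicate 1 or either c-KIT+ array left out. Between replicates the fibroblast markers and the caveolar genes did not always move together. From untreated replicate 1 to 2 the fibroblast mean went from 10.37 to 9.05. Sdpr and Ehd2 were also lower in replicate 2, and the other caveolar genes were higher. The part of the fibroblast and smooth muscle markers in the falls was not tested.

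For the 3 genes with the largest called falls, Sdpr, Cav1 and Ehd2, the stretch around the transcription start shows how unlike their promoters are in base composition. The windows run from 250 bases before to 50 bases after the start in RefSeq's annotation of GRCm38.p6, 5′ to 3′ on the gene's strand. Capitals mark a GC box (GGGCGG) or a CCAAT box, read on either strand.
Sdpr: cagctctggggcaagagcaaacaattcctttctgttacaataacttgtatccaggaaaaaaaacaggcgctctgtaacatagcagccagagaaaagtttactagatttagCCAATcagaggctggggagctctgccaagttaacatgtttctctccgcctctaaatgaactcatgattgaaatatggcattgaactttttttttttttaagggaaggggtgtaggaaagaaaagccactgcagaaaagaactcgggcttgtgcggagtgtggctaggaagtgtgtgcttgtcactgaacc
Cav1: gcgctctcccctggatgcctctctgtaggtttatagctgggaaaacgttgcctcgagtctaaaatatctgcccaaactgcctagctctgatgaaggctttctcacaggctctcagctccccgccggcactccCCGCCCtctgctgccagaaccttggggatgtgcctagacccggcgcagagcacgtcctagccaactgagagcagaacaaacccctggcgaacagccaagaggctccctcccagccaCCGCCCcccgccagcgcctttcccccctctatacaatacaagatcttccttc
Ehd2: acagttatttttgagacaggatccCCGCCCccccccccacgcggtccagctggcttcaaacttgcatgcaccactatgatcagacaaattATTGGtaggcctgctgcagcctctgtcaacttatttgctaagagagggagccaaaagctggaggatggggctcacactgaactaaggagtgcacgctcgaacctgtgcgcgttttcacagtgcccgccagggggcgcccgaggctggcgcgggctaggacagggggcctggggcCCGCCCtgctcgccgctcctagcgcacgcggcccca
The Sdpr window is chr1:51288876-51289175 on the plus strand, that of Cav1 chr6:17306085-17306384 on the plus strand and that of Ehd2 chr7:15967486-15967785 on the minus strand. The Sdpr window had 43.3% G and C and no GC box, and 17.2% of all 32544 promoter windows had less G and C. The windows of Cav1 (59.3%) and Ehd2 (62.0%) were above the median of 53.0%, and each held GC boxes. RefSeq windows were matched for 6 of the 7 genes, all but Prkcdbp, with a second window for Cav1 (chr6:17307390-17307689, not shown) and for Ptrf. Of these 6, counting a gene where any of its windows has a match, Cav1, Cav2, Ptrf and Ehd2 held a GC box (35.9% of all windows did) and Cav2, Ptrf, Sdpr and Ehd2 a CCAAT box (37.4%).

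All these windows were read on both strands for motifs of the transduced factors' families, counting overlapping matches each. AGATAA, a form of the GATA motif, was in 0 of the 6 and in 11.2% of all windows. Other forms of this motif were not searched. A RUNX motif (TGTGGT) was in the second Cav1 window, not in the one shown, and in 16.7% of all windows, an ETS motif (GGAAGT) in Cav2 and Sdpr and in 23.7%, and an E-box (CANNTG) in Cav1, Cav2, Cav3 and Ehd2 and in 72.3%. A TEAD motif (GGAATG) was in Cav3 and Ptrf and in 14.6% of all windows, and the CArG box in 0 of the 6 and in 1.64%. The letters TATAAA were in Cav1 and in 13.6% of all windows. In Cav1 they lay on the opposite strand near the upstream end of the window shown, far from the transcription start. A match is only a run of letters in this window and says nothing of binding.

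At day 8, none of the 7 genes passed the test in CDH5+ cells against untreated MEFs, where limma called 0.213% of all genes lower and 0.965% higher at an adjusted p under 0.05. At an unadjusted p under 0.05 the test called 6 of the 7, all but Cav3 (15.3% of all genes in either direction). For the same 6 genes both CDH5+ arrays lay below both untreated arrays, as for 25.2% of all genes. The median log2 difference of the 7 was -1.30, or -1.21 with Cav2 at its bound, beside -0.07 for all genes. Both comparisons with untreated MEFs share the same 2 untreated arrays.

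Cav2 had the smallest adjusted p of the 7 at day 8, 0.0810 by limma, with a CDH5+ difference of -1.30 (SE 0.23, 95% interval -1.87 to -0.72, at least 2.32-fold). By the gene value both sorted groups were within background for Cav2, so that value gives no share of the day 12 difference at day 8. Ehd2 was lower in CDH5+ cells by 1.02 on the log2 scale (SE 0.22, limma adjusted p = 0.125), and lower by 2.28 in c-KIT+ cells. The day 8 difference was thus 44.9% of the day 12 difference for Ehd2. This share was 54.5% for Ptrf, 59.0% for Cav1, 69.3% for Sdpr and 122% for Prkcdbp. These ratios of measured differences have no interval, and none of the day 8 differences passed the test. For Sdpr the day 8 difference was -2.83 without CDH5+ replicate 1 and -1.24 without CDH5+ replicate 2. For Cav1, only 1 of the 2 c-KIT+ arrays was above background by the gene value, so the day 12 difference of that value is less certain. Of the 11 Cav1 probe sets, 7 were above background on both c-KIT+ arrays.

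For Cav1 the CDH5+ difference was -1.59 (SE 0.41, 95% interval -2.60 to -0.59, limma adjusted p = 0.168). Ptrf differed by -0.75 (SE 0.20, 95% interval -1.23 to -0.26, adjusted p = 0.177). Cav3 differed by 0.03, with an interval from -0.67 to 0.74 that spans 0.

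Sdpr and Prkcdbp had the widest spread at day 8, and in both CDH5+ replicate 2 was the lower array. Sdpr differed from untreated MEFs by -2.04 (SE 0.52, limma adjusted p = 0.170) and Prkcdbp by -1.51 (SE 0.41, adjusted p = 0.186). Without CDH5+ replicate 1, Sdpr had an adjusted p of 0.0435 and Prkcdbp of 0.0467, and these 2 of the 7 passed. Without CDH5+ replicate 2 the differences were -1.24 for Sdpr (adjusted p = 0.368) and -0.88 for Prkcdbp (adjusted p = 0.419). The mean fibroblast marker level was 9.23 in CDH5+ replicate 1 and 7.33 in replicate 2, and its part in the gap between these arrays was not tested. Of the 14 fibroblast markers 0 were lower in CDH5+ cells by limma, and 8 were without CDH5+ replicate 1. Cav1, Cav2, Ptrf and Ehd2 differed between the same 2 arrays by 0.28 or less.

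**Figure D2:**
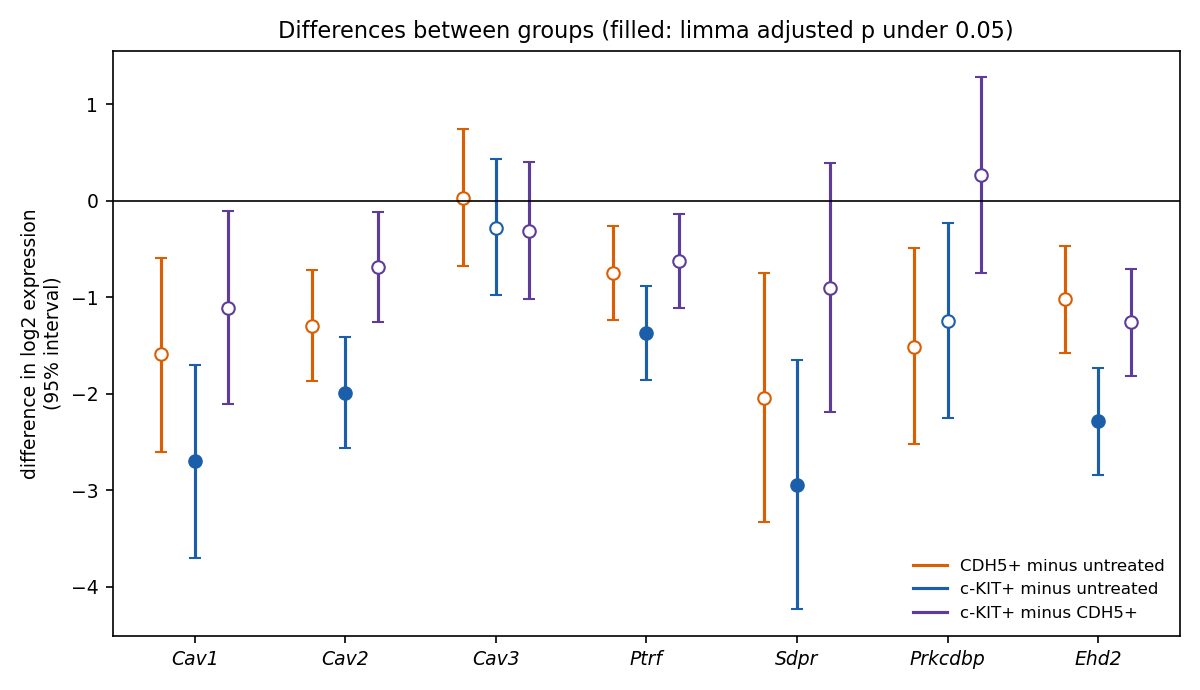
Difference in log2 expression between groups for each caveolar gene, with 95% limma intervals, for CDH5+ cells minus untreated MEFs, c-KIT+ cells minus untreated MEFs and c-KIT+ cells minus CDH5+ cells. Filled points have a limma adjusted p under 0.05, and the only filled points are the c-KIT+ minus untreated differences of Cav1, Cav2, Ptrf, Sdpr and Ehd2.

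Between c-KIT+ and CDH5+ cells 0 of the 7 genes passed, and limma called 0.00% of all genes in either direction, with or without an intensity trend or robust variances. At an unadjusted p under 0.05 it called 4 of the 7, Cav1, Cav2, Ptrf and Ehd2, and 16.0% of all genes. Ehd2 had the smallest p of these, with a log2 difference of -1.26 (SE 0.22, 95% interval -1.81 to -0.71, limma adjusted p = 0.161). Cav1 differed by -1.11 (95% interval -2.11 to -0.10) and Ptrf by -0.62 (-1.11 to -0.14). By its gene value Cav2 was within background in both groups, so that value gives no measured difference. Of its 9 probe sets, 4 were above background on both CDH5+ arrays. In 6 of the 9, both c-KIT+ arrays lay below both CDH5+ arrays (18.0% of all probe sets), with a median log2 difference of -0.89 over the 9. The interval of Sdpr ran from -2.19 to 0.39 and that of Prkcdbp from -0.75 to 1.28, so both intervals span 0. For 5 of the 7 genes the c-KIT+ arrays lay below both CDH5+ arrays, as for 18.7% of all genes.

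Across the 3 groups together, limma's F-test called Cav2 (adjusted p = 0.0260), Ptrf (0.0482) and Ehd2 (0.0164), 3 of the 7, where it called 3.30% of all genes. Cav1 had an adjusted p of 0.0540, Sdpr of 0.0782, Prkcdbp of 0.175 and Cav3 of 0.727. With either c-KIT+ array left out 0 of the 7 passed, and with any other array left out 2 or 3 did. The group means of Cav1, Cav2, Ptrf, Sdpr and Ehd2 were lower at day 8 than in untreated MEFs. They were lower again at day 12, and 18.6% of all genes were lower at both steps. For Cav2 the second step lies within background by the gene value. For Prkcdbp the c-KIT+ mean was 7.57 ± 0.073 (SD, n = 2) and the CDH5+ mean 7.30 ± 0.88 (SD, n = 2), a difference of 0.27 within the spread of the CDH5+ arrays.

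The exon array holds several probe sets for each gene, 64 in all for the 7 genes, and those that differed were counted. Their positions along the transcripts were not used. Probe sets of 1 gene come from the same RNA and are not replicates. Of the 64, 53 had both c-KIT+ arrays below both untreated arrays, where 23.2% of the 321091 probe sets with 1 symbol did. In CDH5+ cells 51 of 64 lay below the untreated arrays (25.2% of all), and 39 of 64 were lower in c-KIT+ than in CDH5+ cells (18.0% of all). Ehd2 with 17 of 17, Cav2 with 9 of 9 and Sdpr with 4 of 4 were lower in both sorted populations throughout.

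In Cav1, 10 of 11 probe sets were lower in c-KIT+ than in untreated arrays, with a median difference of -3.23, a larger one than the gene's own -2.70. The Cav1 probe set with the largest fall measured 10.12 and 11.23 in untreated MEFs, 9.03 and 8.17 in CDH5+ cells, and 5.85 and 6.68 in c-KIT+ cells. One Cav1 probe set ran the other way, at 0.99, and was not above background in untreated MEFs. Of the 9 Cav1 probe sets above background in untreated MEFs, 7 were still above it in c-KIT+ cells, where the gene's own value was near background.

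Among the cavins, 9 of 13 Ptrf probe sets and 4 of 5 Prkcdbp probe sets were lower in c-KIT+ than in untreated arrays. Their medians were -0.82 (range -2.09 to 0.02) for Ptrf and -1.06 (range -1.67 to -0.30) for Prkcdbp, and the 4 Sdpr probe sets lay between -3.34 and -2.70. When the median of the probe sets was taken as the gene's value, Ptrf (adjusted p = 0.138) and Cav1 (0.0564) no longer passed in c-KIT+ against untreated and the count was 3 of 7. In Cav3, 1 of 5 probe sets was bright, at 9.30 and 9.34 in untreated MEFs, 9.64 and 9.61 in CDH5+ cells, and 9.32 and 9.06 in c-KIT+ cells, and the other 4 were not above background in untreated MEFs. A bright probe set beside dim ones of the same gene is no measure of Cav3 transcript by itself.

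**Figure D3:**
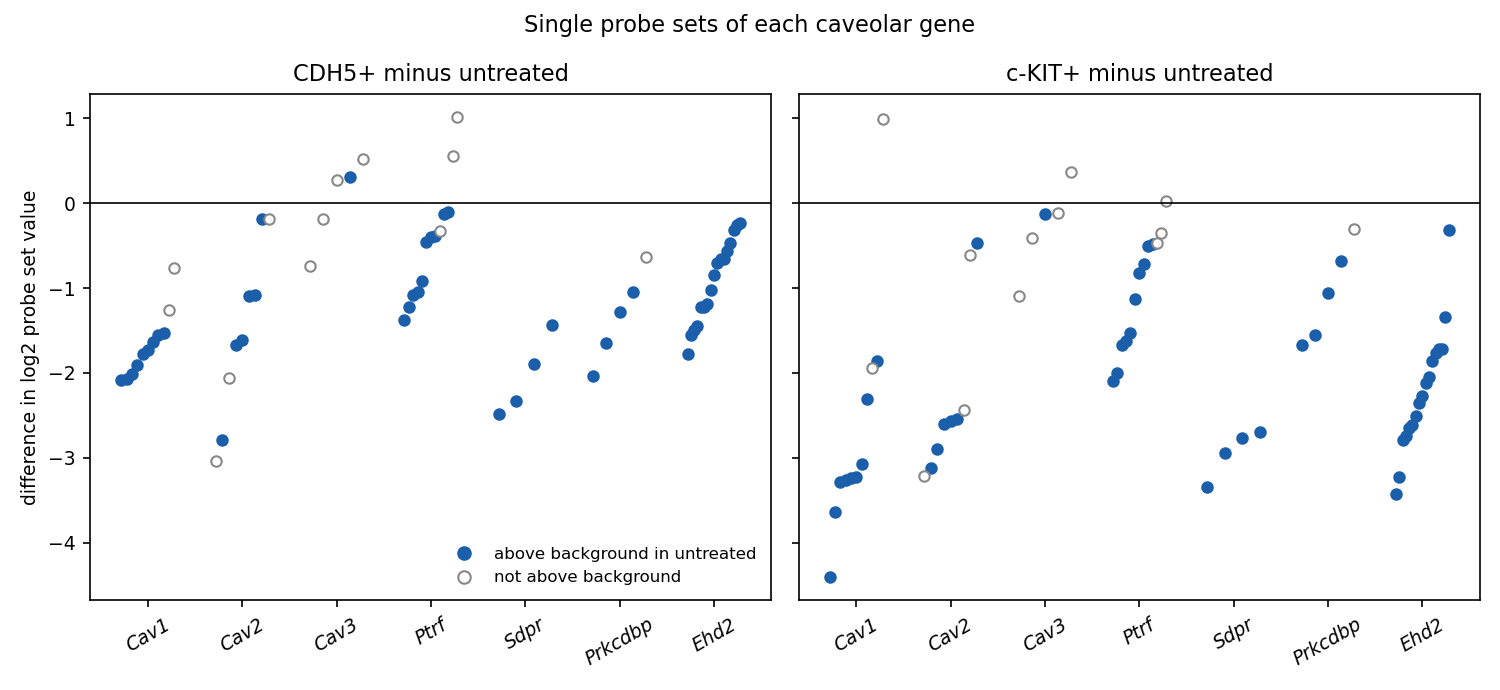
Difference in log2 value of each of the 64 probe sets of the caveolar genes, for CDH5+ cells minus untreated MEFs and c-KIT+ cells minus untreated MEFs. Filled points are probe sets above background in untreated MEFs and open ones are not. All 17 Ehd2, 9 Cav2 and 4 Sdpr probe sets lie below 0 in both panels, while those of Cav3 lie on both sides of it.

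Partner proteins of the coat include dynamins, pacsins, other EHD proteins, filamin and kinases. Of 16 caveola partners, Flna and Fyn were lower in c-KIT+ cells relative to untreated MEFs, none was higher, and the list median was -0.68. There the test called 2.72% of all genes lower and 3.24% higher. With the filter on dim genes it called 1050 of 12889 lower and 1102 higher. In CDH5+ cells it called 0.213% of all genes lower and 0.965% higher. These shares also stand beside the counts of the lists below, and whether any list differs from them was not tested. Flna, filamin A, which ties caveolin 1 to actin, measured 9.21 and 9.19 in c-KIT+ cells and 10.22 and 10.56 in untreated MEFs (log2 difference -1.19, SE 0.21, limma adjusted p = 0.0332). Fyn, a kinase of the Src family, measured 5.75 and 5.89 in c-KIT+ cells and 7.31 and 7.37 in untreated MEFs (-1.52, SE 0.22, adjusted p = 0.0184), and as its c-KIT+ level is within background the fall is at least 2.55-fold. Neither pair overlapped, but 0 of 16 passed with either c-KIT+ array left out and 5 of 16 without untreated replicate 2. In CDH5+ cells 0 of 16 partners passed, with a median of -0.53.

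The relatives of Ehd2 did not share its values. Ehd1, which works in endosome recycling, was 7.79 on both c-KIT+ arrays and 8.14 and 8.47 in untreated MEFs (difference -0.52, limma adjusted p = 0.279). Ehd3 had 6.97 and 7.0 in c-KIT+ cells, between the untreated arrays at 7.36 and 5.86 (difference 0.38, adjusted p = 0.734). Ehd4 was at 7.47 and 7.64 in c-KIT+ cells and at 6.77 and 6.83 in untreated MEFs, and missed the threshold (difference 0.75, adjusted p = 0.0936). Whether Ehd2 differed from its relatives was not tested.

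Murc, the muscle cavin also called cavin 4, was at 4.26 and 3.93 in c-KIT+ cells and at 4.81 and 6.43 in untreated MEFs, where 1 array alone exceeded background (difference -1.52, limma adjusted p = 0.175). Among the pacsins, F-BAR proteins that bend membrane, Pacsin2 is the widely expressed form that joins caveolae. It measured 7.68 and 7.54 in c-KIT+ cells and 7.71 and 8.16 in untreated MEFs (-0.32, adjusted p = 0.494). Pacsin3 had 5.61 and 5.75 in c-KIT+ cells, within background, and 6.91 and 6.36 in untreated MEFs (-0.96, adjusted p = 0.102). Thus neither pacsin passed the test, and the Pacsin3 arrays did not overlap.

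Of 14 proteins found in caveolae, Trpc1 and Bmpr2 were lower in c-KIT+ cells relative to untreated MEFs and none was higher (median -0.66). Trpc1, a cation channel, had 4.12 and 4.26 in c-KIT+ cells, within background, and 6.45 and 6.33 in untreated MEFs (log2 difference -2.21, SE 0.26, limma adjusted p = 0.0107), a fall of at least 1.32-fold against the background level. Bmpr2, a receptor for bone morphogenetic proteins, had 7.18 and 7.41 in c-KIT+ cells and 9.49 and 8.76 in untreated MEFs (-1.83, SE 0.30, adjusted p = 0.0275). With either c-KIT+ array left out 0 of 14 passed, and without untreated replicate 1 it was 1 of 14. In CDH5+ cells only Trpc1 passed, at 4.92 and 4.33 (-1.77, adjusted p = 0.0472, at least 1.28-fold lower), and 0 of 14 were lower without untreated replicate 1, CDH5+ replicate 2 or either c-KIT+ array.

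Endothelial members of that list differed among themselves in CDH5+ cells. Plvap forms the diaphragm of endothelial caveolae and measured 7.17 and 8.18 in CDH5+ cells and 6.07 and 5.90 in untreated MEFs (difference 1.69, SE 0.36, limma adjusted p = 0.118), and was 5.85 and 6.06 in c-KIT+ cells. S1pr1, a receptor for sphingosine 1-phosphate, measured 9.34 and 9.77 in CDH5+ cells and 7.88 and 8.22 in untreated MEFs (difference 1.5, SE 0.25, adjusted p = 0.0671), and was 7.20 and 7.38 in c-KIT+ cells. Neither passed the threshold, and both were picked out after their values were seen. Nos3, the endothelial nitric oxide synthase, was within background at 4.97 and 5.22 in CDH5+ cells and 4.91 and 4.89 in untreated MEFs. The water channel Aqp1 differed by -0.23 and the fatty acid receptor Cd36, within background on all arrays, by -0.67, with adjusted p-values of 0.803 and 0.579.

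In the clathrin route, the main other coat for uptake, 3 of 17 genes fell in c-KIT+ cells against untreated MEFs and none was higher, with a median of -0.21. Dab2, an adaptor for lipoprotein receptors, had 7.19 and 7.18 in c-KIT+ cells and 9.21 and 9.11 in untreated MEFs (log2 difference -1.97, limma adjusted p = 0.00547). Picalm, a clathrin assembly protein, had 8.90 and 8.91 in c-KIT+ cells and 10.74 and 10.44 in untreated MEFs (-1.68, adjusted p = 0.0131), and the adaptor subunit Ap2a2 differed by -1.05 (adjusted p = 0.0496). The clathrin chains themselves had small differences, -0.07 for Clta, -0.18 for Cltb and -0.21 for Cltc, with adjusted p-values of 0.616 or more. In CDH5+ cells 0 of 17 passed, and with either c-KIT+ array left out 0 of 17 passed in c-KIT+ cells.

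Of 8 flotillins and other raft proteins, which mark cholesterol-rich membrane outside caveolae, Lat and Stom were higher in c-KIT+ cells relative to untreated MEFs and none was lower. Lat, the adaptor that links immune receptors to signalling, had 7.99 and 8.10 in c-KIT+ cells and 5.31 and 5.35 in untreated MEFs (log2 difference 2.72, SE 0.19, limma adjusted p = 0.00212). The untreated level is within background, so Lat was at least 4.4-fold higher. Stom, stomatin of the red cell membrane, had 9.85 and 9.91 in c-KIT+ cells and 8.14 and 8.18 in untreated MEFs (1.72, SE 0.19, adjusted p = 0.00835). With either c-KIT+ array left out 1 of 8 passed. Lat also passed in CDH5+ cells, with 7.08 and 7.11 (difference from untreated 1.76, adjusted p = 0.0170, at least 2.27-fold higher), and 0 of 8 were higher there with any array left out but untreated replicate 2. Flot1 and Flot2, the flotillins, differed by 0.12 and 0.25 in c-KIT+ cells, with adjusted p-values of 0.886 and 0.605. Of 18 genes of cholesterol synthesis and transport, 0 passed in c-KIT+ or CDH5+ cells against untreated MEFs, with medians of 0.26 and -0.10.

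**Figure D4:**
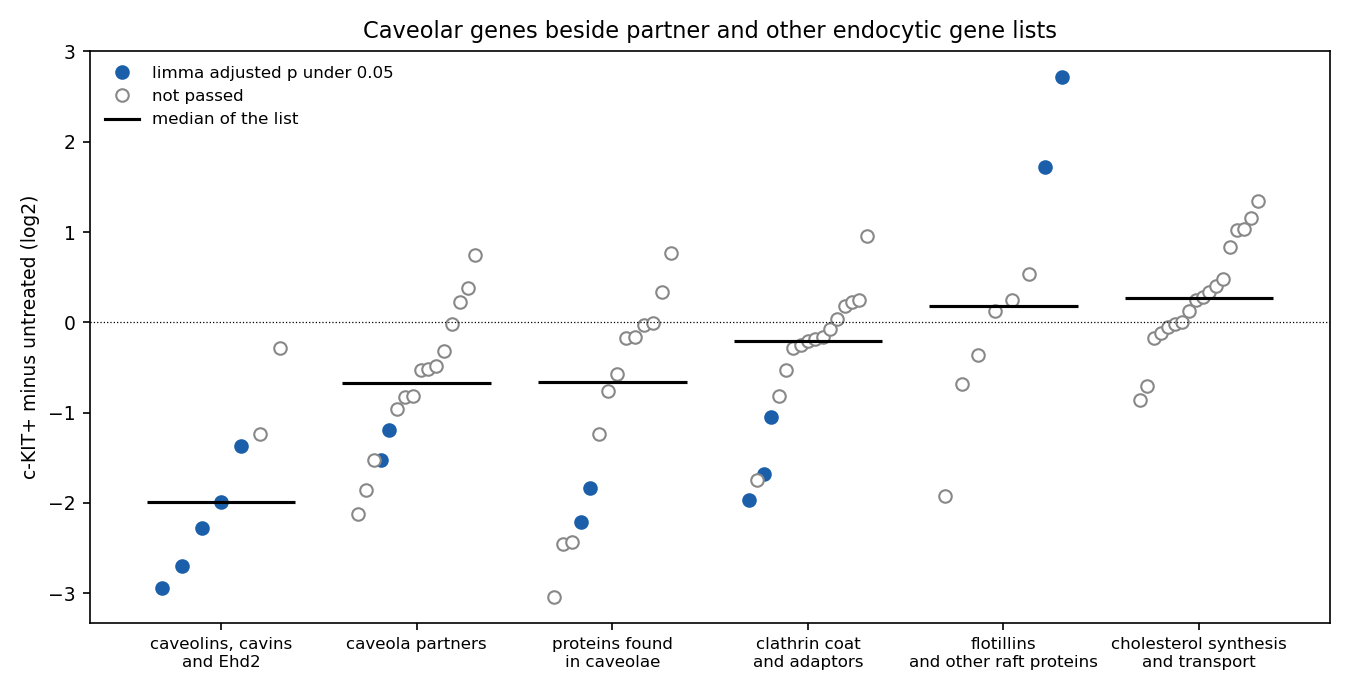
Difference in log2 expression between c-KIT+ cells and untreated MEFs for each gene of 6 lists, with filled points at a limma adjusted p under 0.05 and a bar at each list's median. The caveolin, cavin and Ehd2 list has its median at -1.99, the caveola partners at -0.68, the proteins found in caveolae at -0.66, the clathrin list at -0.21, and the raft and cholesterol lists at 0.18 and 0.26.

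The genes whose profile over the 6 arrays was most like that of Cav1, by the root mean square difference of log2 values after each gene's mean was subtracted, were Gjc1 (0.156), Myof (0.183), Mical2 (0.206), Ncs1 (0.247) and Pxdc1 (0.255). Gjc1 is a connexin, Myof a ferlin of membrane repair and Mical2 an actin-oxidizing enzyme. Gjc1 had the same high second untreated array as Cav1, with 6.75 and 8.10 in untreated MEFs, 6.04 and 5.34 in CDH5+ cells, and 4.44 and 4.99 in c-KIT+ cells. Of the other caveolar genes, Cav2 lay at 0.443 from Cav1, Ehd2 at 0.456, Ptrf at 0.626, Sdpr at 0.632, Prkcdbp at 0.792 and Cav3 at 1.025. The 5 genes above were picked as the nearest among all other genes. The larger values of the caveolar genes therefore do not show that they are unlike Cav1. Their rank among all genes on this measure was not computed.

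Most like Ptrf were Tmem47 (0.077), Myadm (0.090), Pik3c2a (0.093), Mir122a (0.094) and ENSMUSG00000058013 (0.100), whose symbol had become a date in a spreadsheet. Tmem47 measured 9.22 and 9.39 in untreated MEFs, 8.49 and 8.55 in CDH5+ cells, and 7.76 and 7.96 in c-KIT+ cells. Mir122a was at 4.91 or below on all 6 arrays and so within background. Cav2 was the caveolar gene nearest to Ptrf, at 0.319, and Sdpr the farthest, at 0.855. The measure covers 6 arrays only.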

How the data were processed

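RNA of the 6 samples was hybridized to Mouse Exon 1.0 ST arrays. What the authors deposited are log2 expression values, already normalized, of 26323 Ensembl genes and 1236087 probe sets, 1 column per array with nothing pooled. Their normalization, software and genome build were not given in the sources used here. Coordinates of the arrays' features are left out for that reason. The gene value equals the mean of the listed probe sets (within 0.001 on the log2 scale) for Sdpr and Cav3 and for 7.59% of the 17449 genes that could be compared, and for the other 5 caveolar genes it does not. Only the 321091 probe sets with a single gene symbol were used, leaving out 7796 that list several and 907200 that list none. The paper names limma and a 5% false discovery rate among the 3 conditions.

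The deposited log2 gene values were used without filtering or rescaling. A model with group means over all 6 arrays was fitted by limma 3.58.1 (R 4.3.3), so that the 3 groups share their spread (3 residual degrees of freedom). Benjamini-Hochberg adjustment ran over all genes, with a threshold of 0.05. The number of arrays limits the precision. Where every array of a group lay within background, a fold is a bound against the background level of its arrays. The script was tested on simulated data. Percentages of all genes use the same rule as the count they stand beside.

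Alternatives were each array left out, the replicate number as a block, quantile normalization, median centring, a filter on dim genes, an intensity trend, robust variances, only the groups compared, and the median of a gene's probe sets. The mean of probe sets above background was added after the data were seen. The caveolar genes, the gene lists and the tests were chosen with earlier results of these data known. The text names all 7 caveolar genes, the list members past the test in a contrast (at most 4 per list), Murc, Ehd1, Ehd3, Ehd4, Pacsin2, Pacsin3, and the 5 genes most like Cav1 and the 5 most like Ptrf. The clathrin chains, flotillins, Plvap, S1pr1, Nos3, Aqp1 and Cd36 were named after their values were seen. Plvap is also an endothelial marker, and Pdgfrb and Thy1 are also fibroblast markers. Of the marker lists not otherwise given, 0 of 7 adipocyte, 0 of 7 epithelial and 0 of 12 cell cycle genes passed in c-KIT+ cells against untreated MEFs. Promoter windows are from RefSeq on GRCm38.p6.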

Additional observations from a re-analysis of the deposited data

How the results depend on the processing

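Under every alternative run, Cav1, Cav2, Ptrf, Sdpr, Prkcdbp and Ehd2 were lower in c-KIT+ cells relative to untreated MEFs. For this comparison, leaving out either CDH5+ array is the same fit as using only the groups compared, so these alternatives are not separate results. The count of caveolar genes called there, 5 of 7, was 0 to 5 with an array left out and 3 with the median of probe sets (Cav2, Sdpr and Ehd2). In CDH5+ cells against untreated MEFs the count of 0 was 0 to 2 with an array left out, and 1, Cav2, with the filter on dim genes, with the median of probe sets and with the mean of probe sets above background, a setting chosen after the data were seen. Between c-KIT+ and CDH5+ cells it was 0 throughout, although the filter on dim genes called 8 genes higher and 17 lower of 12889. The F-test's count of 3 was 0 to 3 with an array left out and 5 with the filter on dim genes. Over the 15 alternatives the adjusted p of the c-KIT+ difference lay between 0.0108 and 0.17 for Cav1, 0.00483 and 0.11 for Cav2, 0.0087 and 0.173 for Ptrf, 0.0123 and 0.21 for Sdpr, 0.0468 and 0.476 for Prkcdbp and 0.00265 and 0.0814 for Ehd2.

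With the replicate number as a block, the F-test called 1 of the 7 genes, Ehd2, and the c-KIT+ comparison with untreated MEFs still called the same 5, with adjusted p-values of 0.0188 to 0.044. The labels' numbers are not known to mark a shared culture. Deviations of same-numbered arrays correlated at 0.12 between untreated and CDH5+, -0.0153 between untreated and c-KIT+ and -0.0461 between CDH5+ and c-KIT+ arrays, so the block is given here only.

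Some differences changed sign, none of them past the threshold in any setting. Cav3 had a c-KIT+ difference from untreated MEFs of 0.01 without untreated replicate 2 and of -0.56 without replicate 1. Its CDH5+ difference from untreated MEFs was -0.25 without untreated replicate 1, 0.32 without untreated replicate 2, -0.18 without CDH5+ replicate 1 and -0.53 with the median of probe sets, which also gave 0.00 between c-KIT+ and CDH5+ cells. Prkcdbp had a c-KIT+ difference from CDH5+ cells of -0.35 without CDH5+ replicate 2 and of 0.89 without CDH5+ replicate 1. The cause was not tested.

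Over all genes, the F-test called 868, against 1447 with the filter on dim genes, 481 with the block and 86 to 1519 with an array left out. In c-KIT+ cells against untreated MEFs 854 genes were higher and 716 lower, and with an array left out 137 to 1855 and 11 to 1170. In CDH5+ cells 254 were higher and 56 lower, and 400 and 172 with the filter on dim genes, and with an array left out 66 to 254 and 1 to 87. Gene values within background, such as those of Cav2 in sorted cells and Cav3 on most arrays, limit what the array can show.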
